A study of Mus musculus with 4 samples.

Results

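The IL-20 subfamily of cytokines and its receptors was examined in dorsal skin treated with imiquimod (IMQ), as 10 genes chosen by symbol among the 24346 symbols of each deposited file. They were 5 ligand genes (*Il19*, *Il20*, *Il24*, *Il22* and *Il10*), 4 receptor chain genes (*Il20ra*, *Il20rb*, *Il22ra1* and *Il10rb*) and the decoy receptor gene *Il22ra2*, and all 10 were found. RNA sequencing on Day 1 gave 4 libraries, 2 from each group. Both groups were male C57BL/6 mice, 8 weeks old when they were put on a NASH diet (rich in fat, cholesterol, sucrose and bile salt), and after 3 weeks of it their back skin was given 1 day of cream with 5% IMQ, a Toll-like receptor 7 agonist that induces psoriasis-like inflammation. The 7KC-IMQ group had 7-ketocholesterol (7KC), an oxidized cholesterol, added to that diet, and the Cont-IMQ group did not. The comparison therefore asked how the added oxysterol altered skin that had been treated with IMQ in every mouse, and vehicle-treated skin was not analysed here. The labels do not say whether each library came from a separate mouse, so the p-values measure only the spread between these libraries.

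Cytokines of this family are made mostly by immune cells and keratinocytes and act mostly on epithelial cells. IL-19, IL-20 and IL-24 bind a receptor of IL-20Rα (*Il20ra*) and IL-20Rβ (*Il20rb*), and IL-20 and IL-24 also bind a pair of IL-22Rα1 (*Il22ra1*) and IL-20Rβ. IL-22 uses IL-22Rα1 with IL-10Rβ (*Il10rb*), whereas IL-10, which acts on immune cells, uses IL-10Rβ with IL-10Rα. These receptors signal through JAK1, TYK2 and STAT3. In psoriatic epidermis, the ligands are known for driving keratinocyte proliferation, antimicrobial protein production and loss of terminal differentiation, and IL-22 is restrained by IL-22BP, the soluble decoy that *Il22ra2* encodes.

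Levels are given as FPKM, fragments scaled to exon length and to the number of mapped fragments, which allows levels to be compared between genes. The depth estimated from the smallest values was between 14990000 and 16190000 mapped reads per library. Differences between groups are on the log2(FPKM + 1) scale, 7KC-IMQ minus Cont-IMQ, and come from limma fitted to the 15896 genes with a mean of at least 0.1 FPKM. On this scale, differences of weakly expressed genes come out too small. Keratinocyte markers identified the tissue as skin, with *Krt5* between 2544 and 3062 FPKM, and muscle was also present, with *Acta1* between 2106 and 3133 FPKM. Cont-IMQ replicate 2 stood apart in 9 hair follicle markers, whose summed level was 105 and 1454 FPKM in replicates 1 and 2 of Cont-IMQ, compared with 405 and 358 FPKM in those of 7KC-IMQ.

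After Benjamini-Hochberg adjustment over all genes tested, 0 of the 10 members passed 0.05 in limma, and 0.00629% of all genes (1 gene) did. At an unadjusted p-value under 0.05, 4 members were higher and 1 was lower, against 7.5% and 5.47% of all genes. All 4 of the higher members were ligands (*Il19*, *Il20*, *Il24* and *Il22*), and the lower one was the decoy receptor gene *Il22ra2*. The same 4 ligands lay above the Cont-IMQ group without overlap, as 23.9% of all genes did, and *Il20rb* and *Il22ra2* lay below it without overlap, as 22.9% of all genes did. In either direction, 6 members were without overlap, against 46.8% of all genes, and the other 4 overlapped. *Il22* passed the filter on low values only through the 7KC-IMQ libraries, so its place among the higher members is no support for a difference. The median difference was -0.16 over the 4 receptor chains and -0.01 over all genes tested. With 2 libraries against 2, a two-sided exact permutation test of a single gene cannot give a p-value below 0.333.

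**Figure D1:**
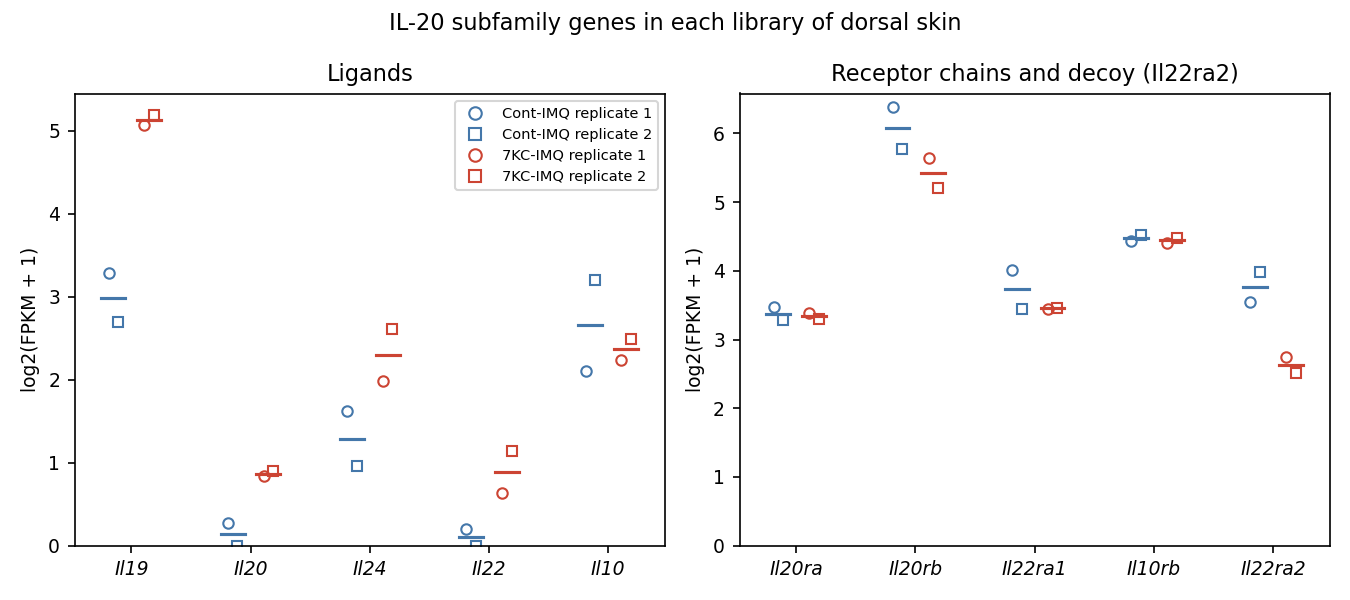
Level of each member as log2(FPKM + 1) on the vertical axis, with 1 symbol per library (circles, replicate 1; squares, replicate 2), blue for Cont-IMQ and red for 7KC-IMQ, and a bar at the mean of each group (n = 2). The red symbols of *Il19*, *Il20*, *Il24* and *Il22* lie above the blue ones, those of *Il20rb* and *Il22ra2* lie below them, and those of *Il10*, *Il20ra*, *Il22ra1* and *Il10rb* overlap with them.

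*Il19* had the largest log2 difference of the family, although *Il20* and *Il22*, from a few reads, exceeded it with a pseudocount of 0.1. *Il19* encodes IL-19, a cytokine that myeloid cells and keratinocytes make in inflamed skin. It stood at 8.71 and 5.49 FPKM in replicates 1 and 2 of Cont-IMQ, compared with 32.6 and 35.4 FPKM in those of 7KC-IMQ. Both 7KC-IMQ libraries were thus far above both Cont-IMQ libraries and close to each other. The group means were 7.10 ± 2.28 FPKM (SD, n = 2) and 34.0 ± 2.02 FPKM (SD, n = 2), a 4.79-fold difference in FPKM. The log2 difference was 2.14 (standard error 0.21, 95% interval 1.59 to 2.69, adjusted p = 0.284 in limma), which was the 13th highest of the 15896 genes. Among the 10 members, *Il19* had the sixth and the seventh highest level in the Cont-IMQ libraries and the second highest level in both 7KC-IMQ libraries, where it exceeded every receptor chain but *Il20rb*.

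*Il24* encodes IL-24, which shares both receptor pairs with IL-20. It was at 2.08 and 0.941 FPKM in replicates 1 and 2 of Cont-IMQ, compared with 2.95 and 5.09 FPKM in those of 7KC-IMQ. Here the groups lay closer, and 7KC-IMQ replicate 1 exceeded Cont-IMQ replicate 1 by less than the distance between the 7KC-IMQ libraries. The log2 difference was 1.00 (standard error 0.32, 95% interval 0.17 to 1.84, adjusted p = 0.365 in limma). On this scale, 0.484% of all genes were at least 2-fold higher without overlap, and *Il19* and *Il24* were the 2 members among them. *Il24* only just reached that cut. Its log2 difference ranged from 0.95 to 1.40 over the other settings and from 0.67 to 1.34 without each library.

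*Il20* and *Il22* were near the limit of detection. *Il20*, which gives the subfamily its name and encodes a keratinocyte and monocyte cytokine, was at 0.212 FPKM in replicate 1 of Cont-IMQ and listed at 0 in its replicate 2, and it reached 0.793 and 0.860 FPKM in the 7KC-IMQ pair. At the length of the longest annotated coding transcript (1186 bases), the estimate was 3, 0, 13 and 13 reads, and at the shortest (465 bases) it was 1, 0, 3 and 3 reads. *Il22*, the cytokine of Th17 cells, γδ T cells and innate lymphoid cells, had 0.148 FPKM in the first Cont-IMQ library and a listed 0 in the second, and it had 0.554 and 1.20 FPKM in the 7KC-IMQ pair. With its only annotated transcript (1110 bases), it came to 2, 0, 8 and 16 reads. Both genes thus rested on at most 3 reads in either Cont-IMQ library, and since an exact 0 in such tables may stand for an estimate that failed, folds are left out. With the 0 taken as listed, the log2 difference was 0.73 for *Il20* (standard error 0.14, adjusted p = 0.352 in limma) and 0.79 for *Il22* (standard error 0.20, adjusted p = 0.356 in limma). A pseudocount of 0.1 instead of 1 gave 2.39 and 2.55. The mean of *Il22* over the Cont-IMQ libraries, 0.0741 FPKM, was below the filter of 0.1, so *Il22* entered the test only through the 7KC-IMQ libraries. In addition, *Il22* shares 29.9% of its 75-base windows with *Iltifb*, a near-identical copy 79.6 kb away on chromosome 10, which was listed at 0 in all 4 libraries.

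*Il10* encodes the anti-inflammatory cytokine that founded the wider family. In contrast to the other ligands, its groups overlapped, with 3.31 and 8.19 FPKM in replicates 1 and 2 of Cont-IMQ, compared with 3.71 and 4.62 FPKM in those of 7KC-IMQ. Cont-IMQ replicate 2, the library with the highest level of hair follicle markers, was the high one. The log2 difference was -0.29 (95% interval -1.30 to 0.71, adjusted p = 0.78 in limma), and it turned to 0.25 without that library. The part that hair follicle content had in this value was not tested. Macrophage and monocyte markers, the genes of a common source of IL-10, had a summed level of 194 and 217 FPKM with Cont-IMQ against 180 and 197 FPKM with 7KC-IMQ. All 9 of these markers were detected, and 1 was higher and 2 were lower without overlap (23.9% and 22.9% of all genes).

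Of the ligand genes, 4 are neighbors on chromosome 1 of GRCm38, the assembly also called mm10. *Il24* lies from 130882074 to 130887454, *Il20* from 130906985 to 130911451 and *Il19* from 130932656 to 130940115, all on the minus strand, and *Il10* lies from 131019845 to 131024974 on the plus strand. The span of 142.9 kb thus holds 3 genes that were higher without overlap and, 79.7 kb beyond *Il19*, 1 gene that overlapped. On the far side of *Il10*, 28.7 kb away, *Mapkapk2*, which encodes a stress-activated kinase, had 75.5 and 75.3 FPKM with Cont-IMQ against 78.2 and 79.5 FPKM with 7KC-IMQ, a log2 difference of 0.06 (adjusted p = 0.719 in limma). On the other side, *Fcmr*, 1.3 kb from *Il24*, was listed at 0 in every library, and *Pigr* had at most 0.0718 FPKM, below the filter. The neighbors were read from a list of 24 genes around all members, of which 19 were tested, 8 higher and 6 lower without overlap (23.9% and 22.9% of all genes), with a median difference of 0.04. The 4 largest differences without overlap were in *Myom3* (-0.67) and *Grhl3* (0.28) near *Il22ra1*, *Slc35g2* (-0.32) near *Il20rb*, and *Gart* (0.28) near *Il10rb*, and 0 passed adjustment in limma (2 higher and 1 lower at an unadjusted p-value under 0.05, against 7.5% and 5.47% of all genes). *Il22* lies on chromosome 10 from 118204942 to 118210047 on the plus strand.

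Of the ligand genes, the promoters of *Il19*, *Il20* and *Il22* are shown, since no window was at hand for *Il24* and *Il10*. Promoter windows from RefSeq (GRCm38.p6) were at hand for 6 of the 10 members, and only bases before the first annotated transcript start are printed, 5′ to 3′ on the strand of the gene. Capitals mark matches, on either strand, to motifs of AP-1 (TGANTCA), STAT (TTCNNNGAA), the TATA box (TATAAA) and NF-kB. No match overlapped another.
Il19, chr1:130940116-130940365, minus strand: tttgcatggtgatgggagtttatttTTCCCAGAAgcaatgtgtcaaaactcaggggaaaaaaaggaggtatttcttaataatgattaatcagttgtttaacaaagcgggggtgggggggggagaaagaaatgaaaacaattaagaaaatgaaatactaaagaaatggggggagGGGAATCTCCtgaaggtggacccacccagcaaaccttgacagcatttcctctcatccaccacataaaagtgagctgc
Il20, chr1:130911452-130911546, minus strand: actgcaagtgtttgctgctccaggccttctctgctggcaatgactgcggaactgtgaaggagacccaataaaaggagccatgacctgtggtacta
Il22, chr10:118204714-118204941, plus strand: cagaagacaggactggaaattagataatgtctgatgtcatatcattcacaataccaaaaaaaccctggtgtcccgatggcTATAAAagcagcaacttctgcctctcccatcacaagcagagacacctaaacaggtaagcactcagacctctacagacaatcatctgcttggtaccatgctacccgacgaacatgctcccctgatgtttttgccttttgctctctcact
In the 250 bases before the RefSeq start, *Il19* had a STAT match, beginning 225 bases before the start, and an NF-kB match, beginning 77 bases before it. Among 32851 promoter windows of the same length, 7.02% had the former and 7.25% the latter. *Il22* had a match to TATAAA (12.4% of windows), beginning 170 bases before the start, and *Il20* had no match to these motifs. *Il22ra1* and *Il20ra*, whose groups overlapped, each had an AP-1 match (6.75% of windows), and *Il22ra1* had an NF-kB match as well. These matches describe letters in a window and were not tested as sites.

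Of the 4 receptor chains, only *Il20rb* was without overlap. This gene, whose product is shared by all receptor pairs of IL-19, IL-20 and IL-24, was the most abundant member in each of the 4 libraries. It had 82.6 and 53.7 FPKM in replicates 1 and 2 of Cont-IMQ, compared with 49.0 and 35.9 FPKM in those of 7KC-IMQ. Both 7KC-IMQ libraries lay below both Cont-IMQ libraries, although the gap between 53.7 and 49.0 FPKM was smaller than the distance between replicates in either group. The log2 difference was -0.66 (standard error 0.26, 95% interval -1.33 to 0.02, adjusted p = 0.393 in limma), and it was -0.35 without Cont-IMQ replicate 1. *Il20rb* lies on chromosome 9 from 100457719 to 100486788.

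Since *Il20rb* is expressed by keratinocytes, its level was also set against basal keratinocyte keratins within each library. Per 100 FPKM of *Krt14*, it was 1.87 and 1.30 in the Cont-IMQ group and 1.02 and 0.630 in the 7KC-IMQ group, and per 100 FPKM of *Krt5* it was 2.70 and 2.11 against 1.76 and 1.32. Against each of 8 keratinocyte markers in turn, the ratio was lower without overlap in the 7KC-IMQ group for 7. The exception was *Col17a1*, a hemidesmosomal collagen of basal keratinocytes, with ratios of 0.365 and 0.253 against 0.273 and 0.214. All 8 ratios share *Il20rb*, itself lower without overlap, so they are not separate observations and add no support for its difference. Of these 8 markers themselves, 2 were higher and 1 (*Col17a1*) was lower without overlap (23.9% and 22.9% of all genes). Their summed level was 29080 and 20665 FPKM with Cont-IMQ against 23207 and 25593 FPKM with 7KC-IMQ. In whole skin, fewer cells of a type and less RNA per cell cannot be told apart.

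*Il20ra* encodes IL-20Rα, a chain that pairs with IL-20Rβ. It had 10.1 and 8.71 FPKM with Cont-IMQ against 9.48 and 8.88 FPKM with 7KC-IMQ. Its 7KC-IMQ libraries lay between the Cont-IMQ libraries, and the log2 difference was -0.03 (95% interval -0.31 to 0.26, adjusted p = 0.94 in limma), with a sign that depended on the libraries used. The ratio of *Il20rb* to *Il20ra* was 8.21 and 6.17 in the Cont-IMQ group and 5.17 and 4.04 in the 7KC-IMQ group. *Il20ra* lies on chromosome 10 from 19712570 to 19760053, 77.9 kb from *Il22ra2*.

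*Il22ra1* encodes the chain that IL-22, IL-20 and IL-24 receptors have in common. It had 15.2 and 9.84 FPKM in replicates 1 and 2 of Cont-IMQ, compared with 9.92 and 9.97 FPKM in those of 7KC-IMQ. Apart from Cont-IMQ replicate 1, its values were nearly equal. The log2 difference of -0.28 (95% interval -0.82 to 0.27, adjusted p = 0.614 in limma) became 0.01 without that library. *Il22ra1* lies on chromosome 4 from 135728172 to 135752140.

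*Il10rb*, the chain shared by the IL-22 and IL-10 receptors, varied little between libraries. Its values were 20.7 and 21.9 FPKM with Cont-IMQ against 20.2 and 21.3 FPKM with 7KC-IMQ. The log2 difference was -0.03 (95% interval -0.25 to 0.18, adjusted p = 0.886 in limma). It lies on chromosome 16 from 91406164 to 91425834, and 12.9% of its 75-base windows also occur in *Gm21970*. *Il10ra*, its partner in the IL-10 receptor and not a member, had 4.89 and 4.16 FPKM against 4.44 and 4.50 FPKM (adjusted p = 0.979 in limma).

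*Il22ra2*, the decoy receptor gene, was lower in the 7KC-IMQ group. It had 10.7 and 14.8 FPKM in replicates 1 and 2 of Cont-IMQ, compared with 5.71 and 4.71 FPKM in those of 7KC-IMQ, from an estimated 374, 513, 212 and 162 reads. The lowest Cont-IMQ library was thus well above the highest 7KC-IMQ library. The means were 12.7 ± 2.88 FPKM (SD, n = 2) and 5.21 ± 0.705 FPKM (SD, n = 2), 2.44-fold higher in the Cont-IMQ group. The log2 difference was -1.13 (standard error 0.18, 95% interval -1.62 to -0.65, adjusted p = 0.352 in limma), the 39th lowest of the 15896 genes. A difference of at least 2-fold downward without overlap was found in 0.201% of all genes, and *Il22ra2* was the 1 member among them. Without Cont-IMQ replicate 2, the library with the highest hair follicle level, the difference was -0.92. It lies on chromosome 10 from 19621998 to 19634681 on the plus strand.

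Dendritic cells are a known source of IL-22BP, and 7 markers of dendritic and Langerhans cells were all detected. Their summed level was 427 and 315 FPKM with Cont-IMQ against 411 and 328 FPKM with 7KC-IMQ. Of these markers, 2 were higher and 1 was lower without overlap (23.9% and 22.9% of all genes). The lower one was *Zbtb46*, a transcription factor of classical dendritic cells, with 1.54 and 1.39 FPKM against 1.28 and 1.21 FPKM. *Itgax*, which encodes CD11c, had 2.56 and 1.49 FPKM with Cont-IMQ against 3.07 and 2.55 FPKM with 7KC-IMQ. The ratio of *Il22ra2* to *Itgax* was 4.18 and 9.91 in the Cont-IMQ group and 1.86 and 1.85 in the 7KC-IMQ group, and that of *Il22ra2* to *Zbtb46* was 6.93 and 10.7 against 4.47 and 3.90. Against each of the 7 markers in turn, the ratio was lower without overlap in the 7KC-IMQ group. All 7 ratios share *Il22ra2*, itself lower without overlap, so they are not separate observations and add no support for its difference. The part of these cells in the level of *Il22ra2* was not tested.

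**Figure D2:**
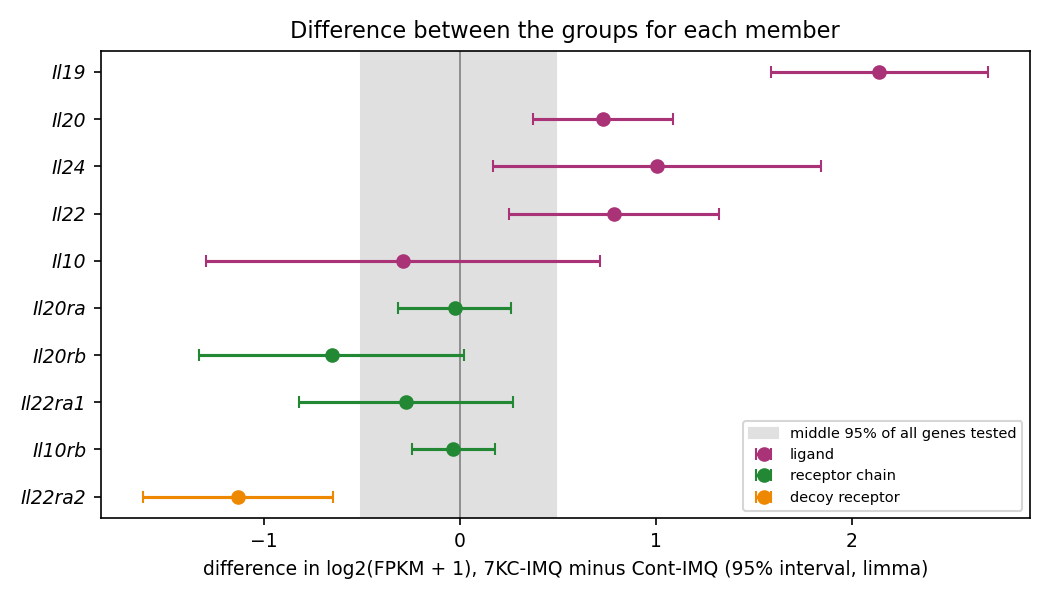
Difference in log2(FPKM + 1) between the groups for each member on the horizontal axis, 7KC-IMQ minus Cont-IMQ (n = 2 each), with 95% intervals from limma and a gray band for the middle 95% of all genes tested (-0.50 to 0.49). *Il19*, *Il20*, *Il24* and *Il22* have their estimates to the right of the band, *Il20rb* and *Il22ra2* to its left, and the other 4 members within it.

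Ratios within a library do not depend on how libraries were scaled to each other. The summed level of *Il19*, *Il20* and *Il24* was 11.0 and 6.43 FPKM with Cont-IMQ against 36.3 and 41.4 FPKM with 7KC-IMQ. That of the chains that bind them (*Il20ra*, *Il20rb* and *Il22ra1*) was 108 and 72.3 FPKM against 68.4 and 54.8 FPKM. The ratio of the former to the latter was 0.102 and 0.0890 in the Cont-IMQ group and 0.531 and 0.755 in the 7KC-IMQ group, so that it was 6.65-fold higher in geometric mean (log2 difference 2.73, SD within groups 0.273, two-sided exact permutation test, p = 0.333). Leaving out each library in turn gave log2 differences between 2.48 and 2.99. The summed receptor chains, mostly *Il20rb*, exceeded the summed ligands in every library. Against *Il20ra* alone, *Il19* was lower with Cont-IMQ, at 8.71 and 5.49 against 10.1 and 8.71 FPKM. With 7KC-IMQ it was higher, at 32.6 and 35.4 against 9.48 and 8.88 FPKM. *Il19* contributed between 78.1% and 88.4% of the summed FPKM of *Il19*, *Il20*, *Il24* and *Il22* in each library, and its share overlapped between the groups.

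The ratio of *Il22* to its decoy *Il22ra2* was 0.0138 in Cont-IMQ replicate 1 and 0 in replicate 2, where *Il22* was listed at 0. It was 0.0970 and 0.255 in the 7KC-IMQ replicates. *Il22* rested on an estimated 2, 0, 8 and 16 reads and passed the filter only through the 7KC-IMQ libraries. This ratio is therefore no support for a difference. The decoy transcript exceeded the ligand transcript in all 4 libraries. The ratio of the decoy to the membrane receptor chain *Il22ra1* was 0.704 and 1.501 in the Cont-IMQ group and 0.575 and 0.472 in the 7KC-IMQ group.

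**Figure D3:**
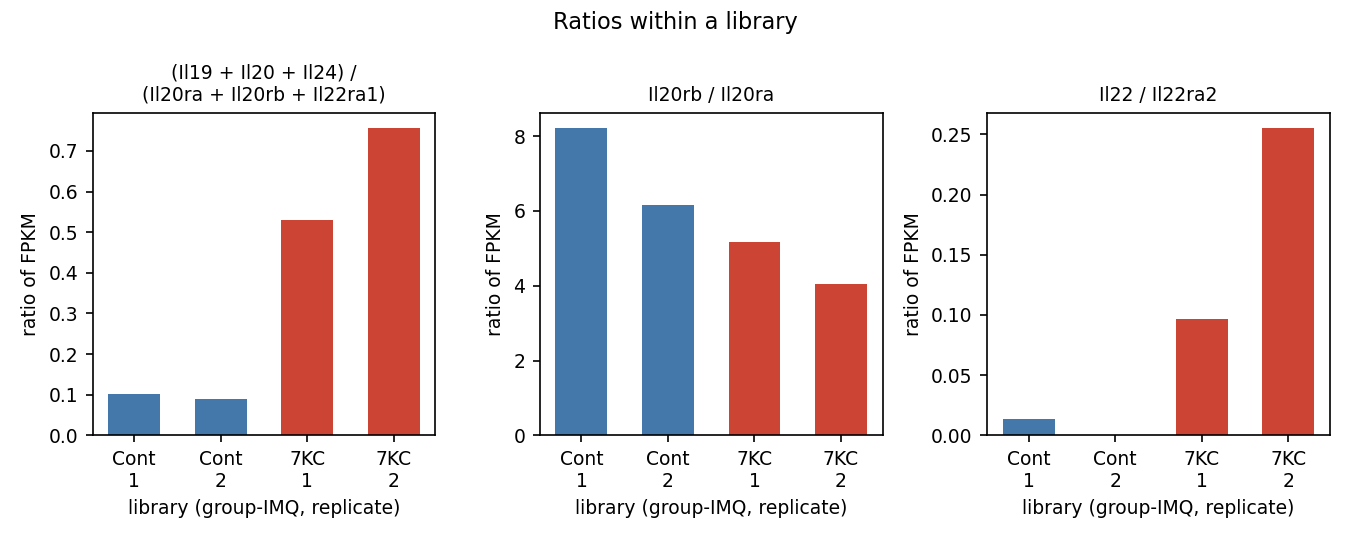
Ratios of FPKM within each library on the vertical axes, with 1 bar per library, blue for Cont-IMQ and red for 7KC-IMQ. The ratio of the summed ligands to the summed receptor chains is at most 0.102 in the Cont-IMQ libraries and at least 0.531 in the 7KC-IMQ libraries. The ratio of *Il20rb* to *Il20ra* is lower in the 7KC-IMQ libraries, and the ratio of *Il22* to *Il22ra2* is higher there, with Cont-IMQ replicate 2 at 0. *Il22* rests on an estimated 2, 0, 8 and 16 reads, in the order of the bars, and passed the filter only through the 7KC-IMQ libraries.

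Markers of the lymphocytes that make IL-22 did not differ in a single direction. Of 8 T cell markers tested, 3 were lower and 1 was higher without overlap in the 7KC-IMQ group, and their summed level with 1 untested marker was 24.99 and 20.4 FPKM against 20.0 and 16.3 FPKM. *Cd3e*, a chain of the T cell receptor complex, had 3.76 and 3.05 FPKM against 2.47 and 2.36 FPKM. Of 13 markers of γδ T cells and type 3 lymphocytes, 7 were in the files. Of these, 4 were higher and 1 was lower without overlap (23.9% and 22.9% of all genes). In limma, 0 passed adjustment, and 4 were higher and 1 was lower at an unadjusted p-value under 0.05 (7.5% and 5.47% of all genes). Their summed levels were 36.7 and 37.2 FPKM against 38.7 and 38.2 FPKM. *Ccr6*, the homing receptor of such cells, had 0.447 and 0.195 FPKM with Cont-IMQ against 1.08 and 0.663 FPKM with 7KC-IMQ. *Blk*, a kinase of IL-17-producing γδ T cells, had 0.286 and 0.144 FPKM against 0.561 and 0.725 FPKM. The part of these cells in the level of *Il22* was not tested.

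The signals known to induce these ligands were read from a list of 20 genes, all tested. Of these, 12 were higher and 2 were lower without overlap (23.9% and 22.9% of all genes). In limma, 0 passed adjustment over all genes, 10 were higher and 1 was lower at an unadjusted p-value under 0.05 (7.5% and 5.47% of all genes), and the median difference was 0.43. *Il23a*, the p19 subunit of IL-23 that drives IL-22 production, had 2.15 and 1.82 FPKM with Cont-IMQ against 7.92 and 8.13 FPKM with 7KC-IMQ. *Il17c*, an epithelial cytokine of the IL-17 family, had 8.53 and 8.47 FPKM against 18.4 and 18.2 FPKM, with replicates nearly identical (log2 difference 1.02, adjusted p = 0.265 in limma). *Il17f*, a cytokine gene of Th17 cells and γδ T cells, had 1.34 and 1.02 FPKM against 5.08 and 6.33 FPKM, and *Il6*, whose product acts through STAT3 itself, had 1.78 and 2.54 FPKM against 5.40 and 12.5 FPKM.

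Downstream of the receptors, 14 genes of the JAK-STAT arm were tested, of which 5 were higher and 4 were lower without overlap, near the shares of all genes (23.9% and 22.9%), with a median difference of 0.04. None passed adjustment in limma, and 2 were higher and 1 was lower at an unadjusted p-value under 0.05 (7.5% and 5.47% of all genes). *Jak1*, the kinase bound to the ligand-specific chains, had 50.5 and 45.4 FPKM against 48.5 and 47.6 FPKM. *Tyk2*, the kinase bound to IL-10Rβ, had 9.78 and 9.40 FPKM against 8.96 and 8.15 FPKM. *Stat3*, the main transcription factor of the pathway, was higher, with 81.9 and 68.5 FPKM against 98.1 and 103 FPKM (log2 difference 0.42, standard error 0.11, adjusted p = 0.356 in limma). Of the feedback inhibitors that STATs induce, *Socs1* had 9.71 and 5.94 FPKM against 13.8 and 14.0 FPKM, while *Socs3*, the typical inhibitor of STAT3 signaling, overlapped, with 53.8 and 74.7 FPKM against 58.8 and 71.5 FPKM. *Pias3*, an inhibitor of STAT3, was among the lower ones, with 10.4 and 8.47 FPKM against 7.50 and 6.19 FPKM.

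Of 11 other genes of the class II cytokine and receptor family, 7 were tested. Of these, 0 were higher and 2 were lower without overlap, where 23.9% and 22.9% of all genes were (median difference -0.01). The larger of these was in *F3*, which encodes tissue factor, a structural relative of these receptors, with 51.8 and 45.7 FPKM against 32.7 and 30.2 FPKM (log2 difference -0.62, adjusted p = 0.352 in limma). *Ifnar1*, a chain of the type I interferon receptor, was the other (log2 difference -0.09). *Iltifb*, *Ifnl2* and *Ifnl3*, the latter being interferon lambda genes, were listed at 0 in all libraries.

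Keratinocyte genes that cytokines of this family are known to raise were mostly higher in the 7KC-IMQ group. Of 20 tested, 15 were higher and 0 were lower without overlap (23.9% and 22.9% of all genes), with a median difference of 1.10. By limma, 0 passed adjustment over all genes and 13 were higher at an unadjusted p-value under 0.05 (7.5% of all genes). *Defb3*, a beta-defensin gene, had 24.7 and 8.93 FPKM with Cont-IMQ against 62.2 and 93.2 FPKM with 7KC-IMQ. *S100a8* and *S100a9*, which encode the subunits of calprotectin, differed by 2.11 and 2.10, and *Sprr2d*, a cornified envelope gene, by 1.91. S100 genes are also expressed by neutrophils. Of 8 neutrophil markers tested, which include *S100a8* and *S100a9* themselves, 6 were higher and 0 were lower without overlap (23.9% and 22.9% of all genes). Those markers summed to 2578 and 2120 FPKM with Cont-IMQ against 7220 and 13815 FPKM with 7KC-IMQ, nearly all of it from *S100a8* and *S100a9*. *Cxcr2*, a chemokine receptor of neutrophils, had 13.4 and 15.05 FPKM against 20.2 and 23.0 FPKM, and *Mmp8*, a collagenase of their granules, had 0.346 and 0.816 FPKM against 1.08 and 1.49 FPKM. Of the genes of granule proteins made in their precursors, *Mpo* was at most 0.0562 FPKM and *Camp* at most 0.682 FPKM. *Elane*, another of them, overlapped, with 0.183 and 0.740 FPKM with Cont-IMQ against 0 and 0.279 FPKM with 7KC-IMQ. The part of neutrophils was not tested.

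Genes of terminal differentiation that these cytokines are known to lower were tested in 11 cases, of which 0 were higher and 4 were lower without overlap (23.9% and 22.9% of all genes), with a median difference of -0.13. None passed adjustment in limma, and 3 were lower at an unadjusted p-value under 0.05 (5.47% of all genes). The 4 were *Flg2* (log2 difference -0.92), *Krt77* (-0.78), *Ivl* (-0.54) and *Hrnr* (-0.41), which encode a filaggrin-like protein, a suprabasal keratin, involucrin and hornerin. *Ivl* had 302 and 353 FPKM with Cont-IMQ against 215 and 233 FPKM with 7KC-IMQ. In both lists of keratinocyte genes other cytokines, among them those of the IL-17 family, act as well, so the lists are not specific to the IL-20 subfamily.

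**Figure D4:**
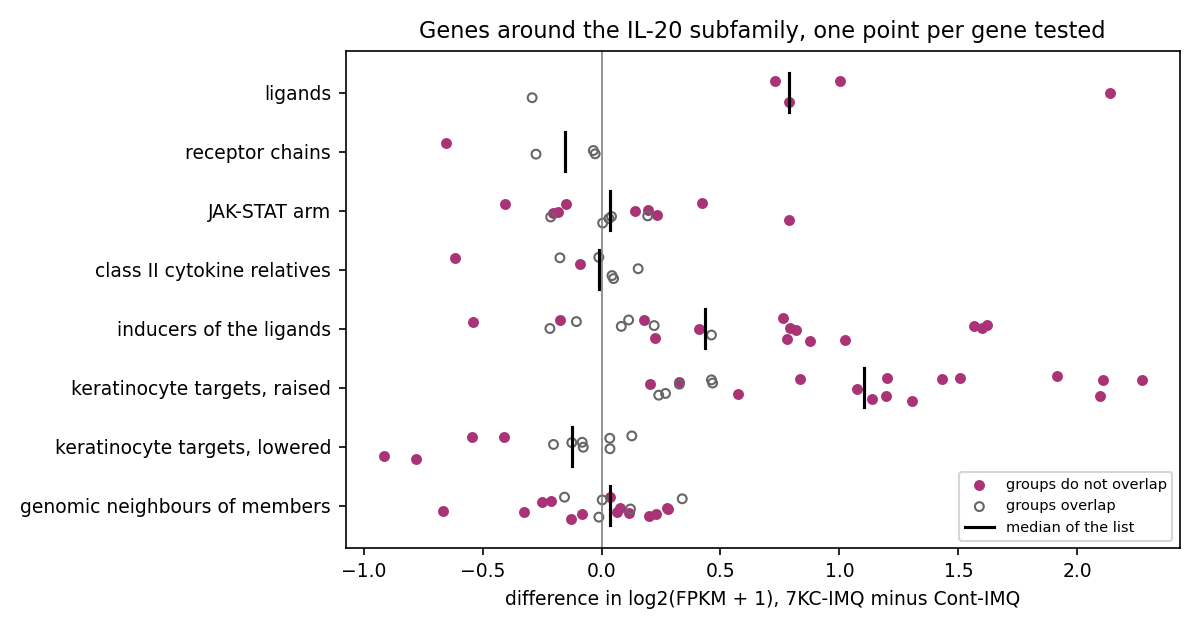
Difference in log2(FPKM + 1), 7KC-IMQ minus Cont-IMQ, for each gene tested in the lists around the IL-20 subfamily, with filled points for genes whose groups do not overlap, open points for the others and a black line at the median of each list. Medians are 0.79 for the ligands (the value of *Il22*, which was tested only through the 7KC-IMQ libraries), -0.16 for the receptor chains, 0.43 for the inducers and 1.10 for the keratinocyte targets that these cytokines raise, and lie between -0.13 and 0.04 for the other lists.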

How the data were processed

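The authors sequenced RNA from IMQ-treated dorsal skin as 75-base single-end reads, and deposited 1 table of FPKM values per gene symbol for each of the 4 libraries. Per the submitters' processing notes, the tools included TopHat2 2.1.1, Bowtie2 2.2.8, SAMtools 0.1.18 and Cuffdiff 2.2.1, with mm10 as genome, and the annotation and the handling of strand and of reads with several positions are not given in the sources used here. The labels gave each library its group.

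FPKM values were used as deposited, as log2(FPKM + 1), for 15896 genes with a mean of at least 0.1 FPKM, and fitted with limma 3.58.1 (R 4.3.3; lmFit, eBayes with trend), with Benjamini-Hochberg adjustment over all genes and a threshold of 0.05. "Without overlap" means that both libraries of a group lay beyond both of the other. Scripts for the fit were tested on simulated data. Depth was estimated from steps in FPKM of genes with 1 transcript, at an assumed fragment length of 200 ± 80 bases, where 70.1% to 73.0% of values of 0.5 to 6.5 reads came within 0.1 of a whole read (20% by chance). Estimated reads carry counting error only.

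The members and lists were chosen with earlier results of these data known. Named were all members, of each list up to 4 genes with the largest difference without overlap, and *Stat3*, *Socs3*, *Jak1*, *Tyk2*, *Il10ra* and *Iltifb*. Some genes that this rule or the marker lists name are not reported here. Other named genes (the flanking genes of the ligand cluster and genes of marker lists) were chosen after their values were seen. The ratios to each keratinocyte and dendritic cell marker were likewise added after seeing the data. Promoters, searched on both strands for 250 bases before the RefSeq start, came from RefSeq (GRCm38.p6), and positions from GENCODE M21. Alternatives were another pseudocount, filter, scaling or variance model, a replicate block, and leaving out each library.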

Additional observations from a re-analysis of the deposited data

How the results depend on the processing

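Of 118 values of members under an alternative setting, 5 turned direction and 0 passed 0.05 in limma. All 5 came from leaving out a library and concerned members whose groups overlapped. This was partly fixed in advance. The other filters, the variance model and the replicate block leave a member's difference as it is. A member without overlap cannot turn direction when a library is left out. Leaving out each library in turn gave log2 differences from -0.84 to 0.25 for *Il10*, -0.12 to 0.068 for *Il20ra*, -0.57 to 0.014 for *Il22ra1* and -0.075 to 0.0059 for *Il10rb*. *Il10* (0.25) and *Il10rb* (0.0059) turned without Cont-IMQ replicate 2, *Il22ra1* (0.014) and *Il20ra* (0.068) without Cont-IMQ replicate 1, and *Il20ra* (0.015) also without 7KC-IMQ replicate 2. The same gave 1.85 to 2.43 for *Il19*, 0.67 to 1.34 for *Il24* and -1.35 to -0.92 for *Il22ra2*.

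The median over all 10 members was -0.03, and it was -0.16 with a filter of 1 FPKM, which leaves fewer members, and -0.11 with the same FPKM sum in each library, where the median over all genes was -0.07. It ranged from -0.034 to 0.13 without each library, with 0.04 without Cont-IMQ replicate 1 and 0.13 without Cont-IMQ replicate 2. Genes passing adjustment numbered 1, 2 with a pseudocount of 0.1, and 1 to 9 without each library (9 without Cont-IMQ replicate 1 and 5 without Cont-IMQ replicate 2). The cause was not tested. Higher without overlap were 4 of the 10 members and 40 of 90 list genes tested, against 23.9% of all genes. These counts and the ratio of ligands to receptor chains stayed within 1.5 times or 1 SD of their values. Leaving out a library can only keep or raise these counts, so it was no test of them. It gave 4 to 6 members and 44 to 55 list genes, and the matching shares of all genes were not computed.

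The labels give both groups the same replicate numbers, but the deviations of equally numbered libraries correlated with r = 0.0651 over 15896 genes, so the numbers were not taken as pairs. With the replicate block, the members' median was -0.03, 1 gene passed adjustment, and no member did. With 2 libraries a group and at most 16 estimated reads for *Il20* and *Il22* in any library, differences in these genes were at the limit of the depth.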
